A study of Mus musculus with 6 samples.

Results

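The cathepsins described here are 10 genes, Ctss, Ctsa, Ctsb, Ctsc, Ctsd, Ctsf, Ctsh, Ctsk, Ctsl and Ctsz, chosen by gene symbol from the 49671 genes of the dataset. Another 13 mouse genes with a cathepsin symbol were also looked up and are described as levels, with a fold change only for Ctso. RNA was sequenced from muscle stem cells (MuSCs) of 6 female C57BL/6 mice aged 4 to 6 months, 1 library per mouse. Every mouse received BaCl2, which destroys myofibers, in both tibialis anterior (TA) muscles, and both muscles of a mouse were pooled at day 3. The 3 mice of the RvD1 group were given the lipid mediator resolvin D1 at 100 ng daily by intraperitoneal injection, and the 3 mice of the vehicle group received saline with 0.1% ethanol. Cells were sorted as Ter119-, CD45-, Sca-1-, CD11b-, CXCR4+ and β1-integrin+, a gate that selects against leukocytes and fibro-adipogenic cells. The labels also give CD31-, which would select against endothelial cells, but the study's methods list no CD31 antibody. No uninjured group was analyzed here, and both groups therefore carry the injury.

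Cathepsins are the main proteases of the lysosome, and most are cysteine proteases, while cathepsin D is an aspartic protease and cathepsin A a serine carboxypeptidase. They are made as inactive precursors, reach the lysosome largely by the mannose 6-phosphate route, are activated at acid pH and are held in check outside it by cystatins. Cathepsins B, D and L are made by nearly all cells, myoblasts included, where they serve protein turnover and autophagy, whereas cathepsin S is typical of macrophages and other antigen-presenting cells, in which it trims the invariant chain of MHC class II.

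Ctss was chosen because its level differed between the groups in these libraries, and the other members were set beside it. Its difference is therefore given as a description, and so are those of its relatives from the same comparison. Where calls of the fit across all genes are counted, nothing is read from them about these genes.

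Promoter sites are shown for a short element of regulators of lysosomal genes and for one of a myeloid factor, because the first was found for Ctsl and Ctsd, which were abundant here, and the second for Ctss. RefSeq promoter windows (GRCm38.p6, 250 bases before to 50 after a start site) were matched for 8 of the 10 genes, all except Ctsb and Ctsh. The letters CACGTG, the E-box at the centre of the element bound by TFEB and its relatives, were searched in the 9 matched windows. They were found in 4 of the 9, each of a different gene, against 7.15% of all 32851 windows. These 4 sites are printed 5′ to 3′ on the strand of the gene, with the E-box in capitals and flanking bases in lower case. The first base of the E-box lies 12, 98, 236 and 79 bases before the RefSeq start site of the window, in that order. The printed stretches lie at chr2:164833751-164833776 (+), chr7:142387910-142387935 (-), chr13:64370741-64370766 (-) and chr19:4855076-4855101 (+). Those of Ctsa, Ctsd and Ctsl lie inside the GENCODE gene spans given below, downstream of the outermost start.
Ctsa: agcaaactgtCACGTGatgcagatgc
Ctsd: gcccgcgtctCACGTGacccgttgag
Ctsl: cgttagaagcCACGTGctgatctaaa
Ctsf: ccccgtggtcCACGTGcctcgcgtaa
Ctsa and Ctsd each held a further CACGTG in the same windows. CACGTG reads the same on both strands, so each match was counted once.

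GAGGAAGT, a core of the sites bound by the myeloid factor PU.1, was searched on both strands. It was found in 2 of the 9 windows, those of Ctss and Ctsc, against 3.2% of all windows. Both matches are on the reverse strand, so the capitals below show its complement. The printed Ctss stretch lies at chr3:95526774-95526801 (+), and its capitals start 2 bases before the start site of the window. The printed Ctsc stretch lies at chr7:88277924-88277951 (+), and its capitals start 151 bases before the start site of its window.
Ctss: atgaaagttcACTTCCTCattgtggatg
Ctsc: tcactaactaACTTCCTCaggccacctc
No window of these genes held both motifs, and those of Ctsz and Ctsk held neither. A match describes the letters only, and binding was not measured in these cells.

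In GENCODE M21 (GRCm38), Ctss spans chr3:95526786-95556403 and its relative Ctsk chr3:95499256-95509362, both on the forward strand and separated by 17423 bases. The other members lie alone on their chromosomes or far from each other. Ctsa spans chr2:164832873-164841032 and Ctsz chr2:174427493-174439039. Ctsc spans chr7:88278085-88310888 and Ctsd chr7:142375911-142388038. Ctsb spans chr14:63122462-63145923, Ctsf chr19:4855130-4860918, Ctsh chr9:90054152-90076089 and Ctsl chr13:64359337-64370890. All are protein coding. The pseudogene Hmgb1-ps5 lies inside Ctss but shares 0 exonic bases with it, and every expected count of Ctss was whole to within 0.005, as when no read is divided between genes. Ctsd shares 808 exonic bases with Gm49369 on the same strand, which was assigned 36.9 to 256 counts, and Ctsb shares 774 with Fdft1 on the other strand. Ctsa overlaps Neurl2 and Pltp on the other strand. The counts of these 3 members were not whole in any library. Ctsl shares 395 exonic bases with the pseudogene Gm49230 on the same strand and 1742 with Gm47123 on the other. Neither of these is listed in the dataset, so no counts were divided with them. The counts of Ctsl were nevertheless whole in only 2 of 6 libraries, for a reason that was not examined. The values of Ctsa, Ctsb, Ctsd and Ctsl carry the uncertainty of counts that were not whole.

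Libraries held 16148026 to 28149176 expected counts. The 12 muscle stem cell and myoblast markers summed to 3268 to 4049 TPM (a level per transcript length, with nearly the same total in each library) with RvD1 and to 3008 to 3354 TPM with vehicle, and none was at 0. The library of RvD1 replicate 1 stood apart for the cathepsins, and their log2 fold changes without it are given beside those that it moved. It was not apart for cathepsins only. Among other lysosomal genes it had the highest TPM for some, such as Lamp2 and Hexa, and the lowest for others, such as Gga2. No fold changes without it are given for those genes.

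The dominant cathepsin of the sorted cells was Ctsl, a broad endopeptidase of the lysosome, with a mean of 727 TPM over the 6 libraries. It took 32.9% to 45.1% of the summed TPM of the 10 genes, with a median of 42.5%. Ctsb, an endopeptidase that also trims dipeptides from C-termini, followed at a mean level of 356 TPM, ahead of Ctsd, an aspartic protease, with 315 TPM and of Ctsz, a carboxypeptidase, with 230 TPM. These 4 genes together made up 88.8% to 93.0% of the cathepsin TPM in every library. Ctsa, which protects lysosomal β-galactosidase and neuraminidase, had a mean level of 68.5 TPM.

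The remaining members were expressed at far lower levels. Ctsh, an aminopeptidase, had a mean of 24.5 TPM, and Ctsf, Ctsk and Ctsc had means of 16.8, 16.6 and 16.0 TPM. Ctss was last at 5.52 TPM, between 0.164% and 0.613% of the 10-gene sum. The order Ctsl, Ctsb, Ctsd, Ctsz, Ctsa, Ctsh held in 6 of 6 libraries, and so did the place of Ctss below Ctsc. Ctsf, Ctsk and Ctsc could not be ordered, since Ctsf exceeded Ctsk in 4 of 6 libraries and Ctsk exceeded Ctsc in 3 of 6. The ranges of Ctsb and Ctsd also overlapped across mice, although Ctsb was the higher in each.

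**Figure D1:**
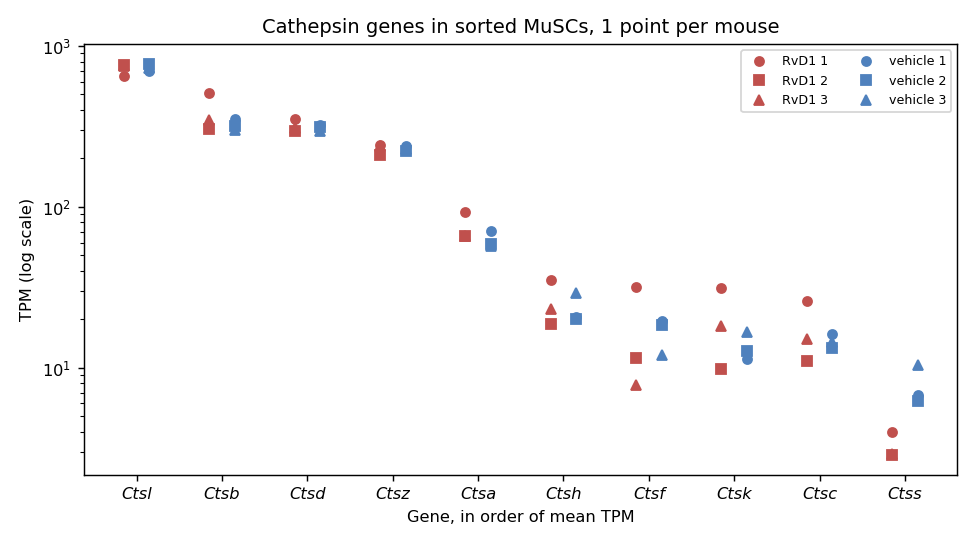
TPM (log scale) of the 10 cathepsin genes, ordered by mean TPM on the horizontal axis, with 1 point for each of the 3 RvD1 (red) and 3 vehicle (blue) mice and a marker shape for each replicate number. Ctsl lies between 649 and 777 TPM and Ctss between 2.86 and 10.4 TPM, where the groups do not overlap.

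Ctss, an elastolytic cysteine protease that stays active at neutral pH, was lower in every RvD1 library than in any vehicle library. The expected counts behind it were 66, 64 and 40 with RvD1 and 87, 90 and 159 with vehicle. The exact 95% Poisson intervals of these counts, which cover counting error only, reached at most 84.0 with RvD1 and began at 69.7 with vehicle, before any correction for depth. RvD1 libraries were the deeper on the median, and on the CPM scale (counts divided by the library total, after TMM normalization) Ctss stood at 2.99, 2.28 and 2.22 with RvD1 and at 5.39, 5.17 and 8.63 with vehicle.

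The Ctss groups were thus separated, with the vehicle replicate 3 library the highest of all. Mean CPM was 2.497 ± 0.426 (SD, n = 3) with RvD1 and 6.40 ± 1.94 (SD, n = 3) with vehicle, 2.56-fold lower with RvD1. The log2 fold change fitted by edgeR was -1.36 (SE 0.28), and in TPM the group means were 3.24 ± 0.624 and 7.80 ± 2.24 (SD, n = 3). Without RvD1 replicate 1 the log2 fold change was -1.50, and without vehicle replicate 3 it was -1.08, which are the extremes over the 6 libraries left out in turn. In RNA pooled from many cells, fewer cells of a type and less RNA per cell cannot be told apart.

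Across all genes, edgeR called 0 of 14494 at an adjusted p under 0.05, 0% of those tested, with 0.971 the smallest adjusted p. None of the 10 cathepsins was therefore called, by edgeR or by DESeq2 and limma-voom on the same genes. At an unadjusted p under 0.05, 1 of the 10 passed, Ctss, against 3.47% of all genes. In 2 of the 10, Ctss and Ctsz, the RvD1 libraries all lay below the vehicle libraries in CPM, as in 4.83% of all genes, and in 0 of 10 they all lay above, as in 4.8% of all genes. Separation in either direction was found in 9.62% of all genes. The rule used this comparison, so nothing is read from these counts.

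The other 9 genes had log2 fold changes between -0.16 and 0.43, 6 above 0 and 3 below, with a median of 0.10 beside a median of 0.01 over all genes tested. On the log2(TPM + 1) scale the sign differed for 3 of them, with 0.03 for Ctsd, 0.003 for Ctsz and -0.17 for Ctsf. In mean TPM, 9998 of the 14494 genes tested were higher with RvD1, whereas 7748 had a log2 fold change above 0 from counts. For Ctsl, TPM was 649, 764 and 746 with RvD1 and 700, 777 and 725 with vehicle. The groups overlapped, and the lowest value was that of RvD1 replicate 1. The log2 fold change was -0.16 (SE 0.12) for Ctsl, and -0.05 without that library.

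Ctsb had 510, 306 and 346 TPM with RvD1 and 354, 317 and 302 TPM with vehicle. A single RvD1 library was high, and the others lay within or close to the vehicle range. Its log2 fold change of 0.10 (SE 0.17) became -0.14 without RvD1 replicate 1. Ctsd had 353, 295 and 307 TPM with RvD1 and 324, 312 and 297 TPM with vehicle. The groups overlapped, and the log2 fold change was -0.04 (SE 0.09), and -0.10 without RvD1 replicate 1.

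Ctsz, a carboxypeptidase, had 242, 210 and 238 TPM with RvD1 and 237, 223 and 227 TPM with vehicle. The groups overlapped in TPM but not in CPM, and the mean was 190 ± 8.96 CPM with RvD1 and 200 ± 2.30 CPM with vehicle (SD, n = 3). Its log2 fold change was -0.08 (SE 0.08) from counts, and -0.10 without RvD1 replicate 1. The TPM means were 230 ± 17.4 with RvD1 and 229 ± 7.32 with vehicle (SD, n = 3), so that the separation of this gene depended on the scale. Ctsa had 93.2, 65.7 and 65.8 TPM with RvD1 and 70.6, 58.9 and 57.1 TPM with vehicle, overlapping groups with RvD1 replicate 1 the highest. Ctsa had a log2 fold change of 0.13 (SE 0.13), and -0.004 without that library.

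**Figure D2:**
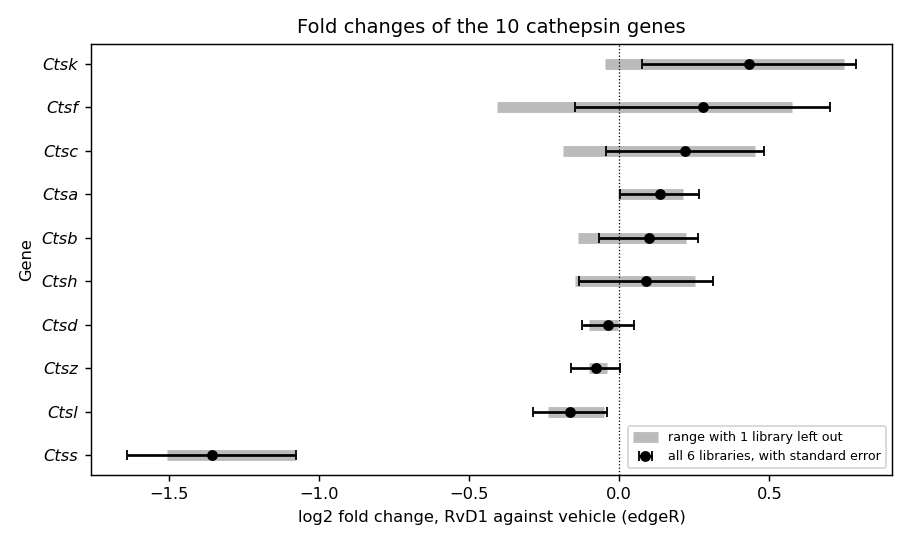
Log2 fold change (RvD1 against vehicle, edgeR, horizontal axis) of each cathepsin gene (vertical axis), with the standard error as a black bar and the range over fits that leave out 1 of the 6 libraries in grey. Ctss lies at -1.36 with a range of -1.50 to -1.08, and the other 9 genes lie between -0.16 and 0.43.

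The less abundant members varied most between mice, and mainly through a single library. Ctsk, a collagen-degrading protease best known from osteoclasts and also made by fibroblasts, had 31.2, 9.78 and 18.2 TPM with RvD1 and 11.3, 12.8 and 16.6 TPM with vehicle. RvD1 held both the highest and the lowest value, so that the groups overlapped on both sides. The log2 fold change of Ctsk was 0.43 (SE 0.36), and it was -0.05 with RvD1 replicate 1 left out and 0.75 with RvD1 replicate 2 left out.

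Ctsf, a lysosomal cysteine protease, had 31.6, 11.6 and 7.80 TPM with RvD1 and 19.4, 18.3 and 11.9 TPM with vehicle. The highest RvD1 library exceeded the lowest other library 4.05-fold in TPM, the widest spread in TPM of the 9 genes. Ctsf had a log2 fold change of 0.28 (SE 0.42) with this library and -0.41 without it, and up to 0.58 with another library left out.

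Ctsc, the dipeptidyl peptidase that activates serine proteases of mast cells, neutrophils and cytotoxic lymphocytes, had 25.9, 11.1 and 15.2 TPM with RvD1 and 16.3, 13.2 and 14.5 TPM with vehicle. The vehicle values lay inside the RvD1 range. Ctsh had 35.0, 18.6 and 23.3 TPM with RvD1 and 20.7, 20.2 and 28.9 TPM with vehicle, which also overlapped. The log2 fold changes of these genes were 0.22 (SE 0.26) for Ctsc and 0.09 (SE 0.22) for Ctsh, and -0.19 and -0.15 without RvD1 replicate 1. With another library left out they reached 0.45 for Ctsc and 0.25 for Ctsh.

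RvD1 replicate 1 was the highest of the 6 libraries in CPM for 7 of the 9 genes other than Ctss and the lowest for 1, Ctsl, whereas over all genes tested it was the highest for 30.6% and the lowest for 29.5%. In this library Ctsf and Ctsk lay 1.13 and 1.09 above the vehicle mean on the log2 CPM scale, while Ctss lay 1.03 below it. Leaving it out, all of the 10 log2 fold changes from counts were below 0, and apart from Ctss they lay between -0.41 and -0.004. The ends of this range were Ctsf (SE 0.26) and Ctsa (SE 0.10), and the median over all genes tested in that fit was 0.00097. Nothing is read from the shared sign. The 8 fibro-adipogenic markers, none of them at 0, summed to 1721 TPM in this library and to 739 and 1079 TPM in the other RvD1 libraries, beside 849 to 929 TPM with vehicle. The median log2 fold change of these markers was 0.29, and 1 of the 8 lay below 0. This was Ly6a, which encodes Sca-1, at -0.62 (SE 0.20), the only one with an unadjusted p under 0.05 by edgeR. Ly6a had 25.4, 22.4 and 17.3 TPM with RvD1 and 39.7, 26.3 and 30.3 TPM with vehicle, without overlap. The part of the 8 markers in the cathepsin levels was not tested. The ratio of Ctsk to the sum of the 8 markers, on the log2 scale, was -5.97 ± 0.24 with RvD1 and -6.07 ± 0.28 with vehicle (SD, n = 3). The groups overlapped.

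**Figure D3:**
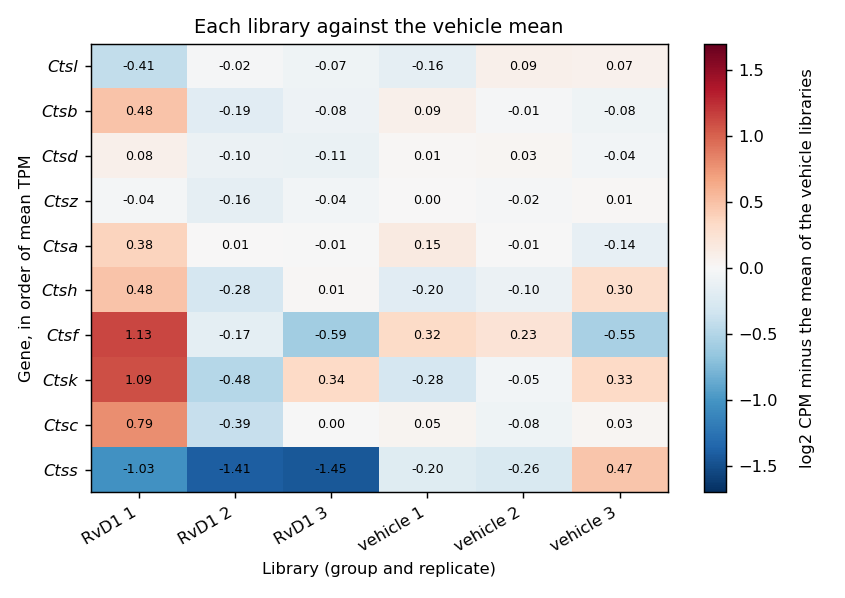
Log2 CPM of each cathepsin gene (rows, in order of mean TPM) in each library (columns) minus the mean of the 3 vehicle libraries, as color and number. RvD1 replicate 1 reaches 1.13 for Ctsf and 1.09 for Ctsk, and only for Ctss are all 3 RvD1 libraries below -1.

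The comparison of Ctss with the other cathepsins was made within each library, as the ratio of Ctss TPM to the summed TPM of the other 9 genes. Which of the sorted cells expressed these 9 genes was not measured. For every 1000 TPM of the other 9 genes, Ctss made up 2.01, 1.69 and 1.64 TPM with RvD1 and 3.88, 3.56 and 6.16 TPM with vehicle. The groups did not overlap. The mean log2 ratio was -9.14 ± 0.16 with RvD1 and -7.83 ± 0.43 with vehicle (SD, n = 3), a difference of -1.31, or 2.48-fold lower with RvD1. With Ctsb, Ctsd and Ctsl alone as the denominator the difference was -1.30. The 10-gene sum, of which Ctss was at most 0.613%, was 1696 to 1975 TPM with RvD1 and 1691 to 1760 TPM with vehicle. RvD1 replicate 1 had the highest sum.

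Most macrophage markers had lower values with RvD1 as well, though their sums overlapped between the groups. Of 22 macrophage markers, 18 were tested, and 16 of these had a log2 fold change below 0, with a median of -0.44. By edgeR 0 were called, and 4 of the 18 had an unadjusted p under 0.05, beside 3.47% of all genes tested. None of the 22 was at 0 in every library, and their summed level was 50.2 to 76.9 TPM with RvD1 and 68.5 to 110 TPM with vehicle. Among them, the log2 fold change was -1.27 (SE 0.65) for Adgre1, which encodes F4/80, -0.20 (SE 0.28) for the growth factor receptor gene Csf1r and -0.23 (SE 0.32) for the endosomal glycoprotein gene Cd68. It was -0.53 (SE 0.67) for Ptprc, which encodes CD45, and -0.44 (SE 0.48) for Itgam, which encodes CD11b, and both of these proteins were used to remove cells in the sort. The 4 with an unadjusted p under 0.05 were Ms4a7, Lyz2, Tyrobp and C1qb, named after their values were seen. Ms4a7, a membrane protein gene of macrophages, had 1.19, 1.10 and 0.57 TPM with RvD1 and 4.26, 2.44 and 2.94 TPM with vehicle. Its groups did not overlap, and its log2 fold change, -1.98 (SE 0.44), was further below 0 than that of Ctss. The groups were also apart in TPM for the adaptor gene Tyrobp, with a log2 fold change of -1.04 (SE 0.38), and for the complement gene C1qb, with -0.73 (SE 0.26). Of the 6 neutrophil markers, S100a9, Ly6g and Elane were at 0 in every library. S100a8, Mpo and Csf3r reached at most 1.80, 0.94 and 0.43 TPM, and 0 of the 6 passed the count filter. The 6 summed to 0 to 1.99 TPM with RvD1 and to 0.43 to 0.94 TPM with vehicle. Of the 6 endothelial markers, 5 had a log2 fold change below 0, with a median of -1.07, and 0 were called or had an unadjusted p under 0.05. They summed to 9.41 to 15.2 TPM with RvD1 and to 6.95 to 20.6 TPM with vehicle, none was at 0 in every library, and their part in the Ctss level was not tested.

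Set against the sum of these markers, Ctss was lower with RvD1, although single markers such as Ms4a7 differed more than Ctss. For every 1000 TPM of macrophage markers, Ctss made up 51.5, 57.0 and 56.4 TPM with RvD1 and 67.8, 91.0 and 93.8 TPM with vehicle, without overlap. The difference of the mean log2 ratios was -0.60, or 1.52-fold lower with RvD1. Lyz2, the macrophage lysozyme, supplied the largest level of the list, with means of 45.9 ± 17.0 TPM (SD, n = 3) in the vehicle group and 23.4 ± 9.41 TPM in the RvD1 group, and without it in the denominator the difference was -0.86. The part of macrophage transcripts in the Ctss level was not tested.

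**Figure D4:**
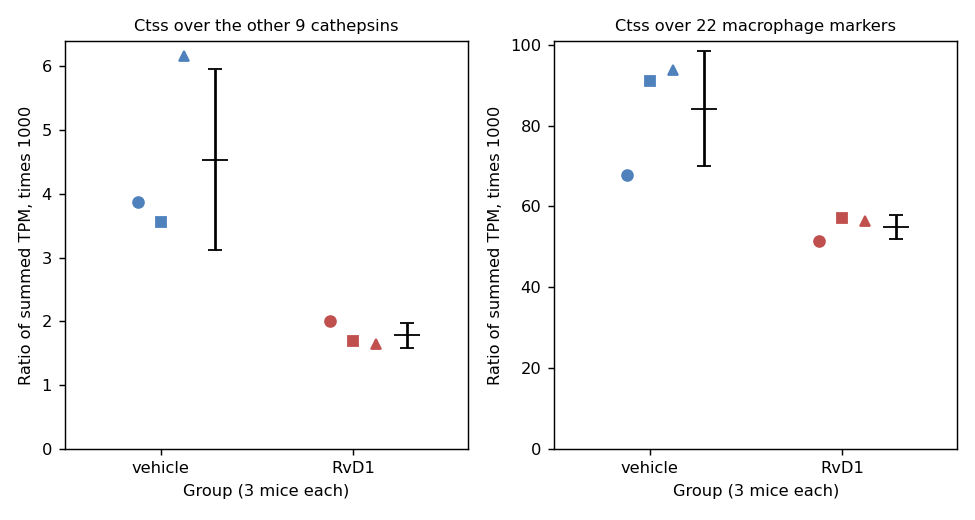
Ctss TPM for every 1000 TPM of the other 9 cathepsin genes (left) and of 22 macrophage markers (right), with 1 point per mouse beside the mean and SD of each group of 3. Ratios to the other cathepsins are 3.56 to 6.16 with vehicle and 1.64 to 2.01 with RvD1.

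The genes whose pattern over the 6 libraries was most like that of Ctss were Gm13493, Gm44973, Fcgr3, Myo1f and Lyz2. Likeness was measured as the root mean square difference of log2 CPM after each gene was centered on its own mean, and it was 0.17, 0.25, 0.27, 0.28 and 0.29 for these genes, beside a median of 0.73 over all other genes tested. The nearest genes lie below this median by construction, here and for Ctsl below. They also share the direction of Ctss, which was chosen for its group difference, so nothing is read from that direction. Of these genes, Fcgr3 encodes an Fc receptor of myeloid cells and Myo1f a myosin of leukocytes. Lyz2 had 34.3, 18.4 and 17.6 TPM with RvD1 and 49.0, 27.6 and 61.1 TPM with vehicle, which overlapped between the groups, unlike Ctss. Fcgr3 had low levels, 0.94, 0.90 and 0.51 TPM with RvD1 and 1.16, 1.45 and 2.41 TPM with vehicle. Myo1f was lower still and reached at most 0.64 TPM.

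Ctsl was closest to Nol7, Hmgb1, Nsmce4a, Ahsa1 and Psmb6, at root mean square differences of log2 CPM between 0.014 and 0.030 and a median of 0.25 over all other genes tested. These are nuclear, chaperone and proteasome genes of high level, among them the chromatin protein gene Hmgb1 at a mean of 1183 TPM. Each had its lowest TPM in RvD1 replicate 1, as Ctsl did. Within the family, Ctsd and Ctsz were the closest pair, at 0.065 on the same measure, followed by Ctsb and Ctsa at 0.099. Ctsf and Ctss were the farthest apart, at 0.96.

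Of the 13 further cathepsin genes, 10 had 0 counts in every library, among them Ctsg, a granule protease of neutrophils and mast cells, and the placental genes Ctsj, Ctsm, Ctsq and Ctsr. Ctso was the only one tested, and it had 28, 10.2 and 11.9 TPM with RvD1 and 15.1, 13.5 and 9.38 TPM with vehicle. RvD1 replicate 1 was again the highest library and the groups overlapped, with a log2 fold change of 0.32 (SE 0.34), and -0.23 without that library. Ctsw, typical of cytotoxic lymphocytes, reached at most 1.49 TPM, and Ctse reached 0.10 TPM in 1 library.

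The inhibitors of cathepsins were led by Cstb, the cytosolic cystatin B, at a mean level of 443 TPM. Cstb had 415, 457 and 388 TPM with RvD1 and 458, 475 and 463 TPM with vehicle. The RvD1 libraries were all lower, though the nearest values, 457 and 458 TPM, hardly differed. Its log2 fold change was -0.23 (SE 0.10). Of the 18 inhibitors 6 were tested, 1 with a log2 fold change above 0 and 5 below, with a median of -0.19, and 0 were called by edgeR or had an unadjusted p under 0.05. In mean TPM, 2 were higher with RvD1 and 4 lower. Ctla2a, related to cathepsin propeptides, had the lowest value, -1.38 (SE 0.85), at a mean level of only 3.60 TPM, and the serine protease inhibitor Serpinb1a the highest, 0.01 (SE 0.22).

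Genes that deliver enzymes to the lysosome were all expressed, and 0 of 11 were called, with 8 log2 fold changes above 0, 3 below and a median of 0.08. In mean TPM, 11 were higher with RvD1 and 0 lower, on a scale where 9998 of the 14494 genes tested were higher. M6pr, the cation-dependent mannose 6-phosphate receptor, had the highest mean level, 147 TPM, and a log2 fold change of -0.04 (SE 0.10). Gga3, an adaptor for this receptor, had 11.7, 10.4 and 10.7 TPM with RvD1 and 8.23, 9.13 and 8.06 TPM with vehicle, groups that did not overlap. The log2 fold change was 0.30 (SE 0.12) for Gga3, the only gene of this list with an unadjusted p under 0.05, and -0.07 (SE 0.12) for its relative Gga2.

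All 35 other lysosomal hydrolases were tested, 22 with a log2 fold change above 0 and 13 below, with a median of 0.07, and 0 were called. In mean TPM, 30 were higher with RvD1 and 5 lower, again beside 9998 of the 14494 genes tested that were higher. RvD1 replicate 1 was the highest library for many of them, such as Hexa, but not for all, such as Gla. The count was not repeated without it. Psap, the precursor of the saposins, had the highest mean level, 178 TPM, and a log2 fold change of -0.02 (SE 0.12). Ids, the sulfatase deficient in Hunter syndrome, had 19.5, 15.8 and 14.7 TPM with RvD1 and 13.2, 13.3 and 10.4 TPM with vehicle, which did not overlap. Ids was the only gene of this list with an unadjusted p under 0.05 and had a log2 fold change of 0.33 (SE 0.14). Acp5, the tartrate-resistant acid phosphatase of osteoclasts and macrophages, had the lowest log2 fold change, -0.96 (SE 0.61), at a mean level of 0.95 TPM.

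Lysosomal membrane proteins and subunits of the V-ATPase, the proton pump that acidifies the lysosome, numbered 25, of which 24 were tested. Of these, 7 had a log2 fold change above 0 and 17 below, with a median of -0.03, and 0 were called or had an unadjusted p under 0.05. This split turned with the scale, since 17 were higher with RvD1 in mean TPM and 7 lower. In mean TPM 9998 of the 14494 genes tested were higher. The tetraspanin gene Cd63 had the highest mean level, 3199 TPM, and a log2 fold change of -0.13 (SE 0.08), while the values were 0.20 (SE 0.23) for Lamp2 and -0.19 (SE 0.18) for the pump subunit gene Atp6v0d1. Lamp2 had 317 TPM in RvD1 replicate 1, 173 and 156 TPM in the other RvD1 libraries and 208, 176 and 152 TPM with vehicle.

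Among the 4 genes of the MiT/TFE family, which encode activators of lysosomal genes at the E-box shown above, 3 were tested and all had log2 fold changes above 0, with a median of 0.21. Tfe3 had the highest mean level, 33.1 TPM, and a log2 fold change of 0.06 (SE 0.11). Tfeb had 5.01, 5.20 and 5.06 TPM with RvD1 and 3.13, 3.93 and 4.24 TPM with vehicle. The groups of Tfeb did not overlap in TPM, and its log2 fold change was 0.45 (SE 0.22), but 0 of the 3 were called by edgeR or had an unadjusted p under 0.05.

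The MHC class II partners of cathepsin S were at low levels. Of the 7, 4 were tested, 2 above 0 and 2 below, with a median log2 fold change of 0.02, and 0 were called or had an unadjusted p under 0.05. H2-Eb1 had the highest mean level, 2.85 TPM, and the highest log2 fold change, 0.44 (SE 0.39), and H2-Ab1 the lowest, -0.49 (SE 0.40). For Cd74, the invariant chain that cathepsin S cleaves, TPM was 5.55, 0.59 and 1.37 with RvD1 and 3.20, 1.92 and 2.32 with vehicle. The vehicle values lay inside the RvD1 range.

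**Figure D5:**
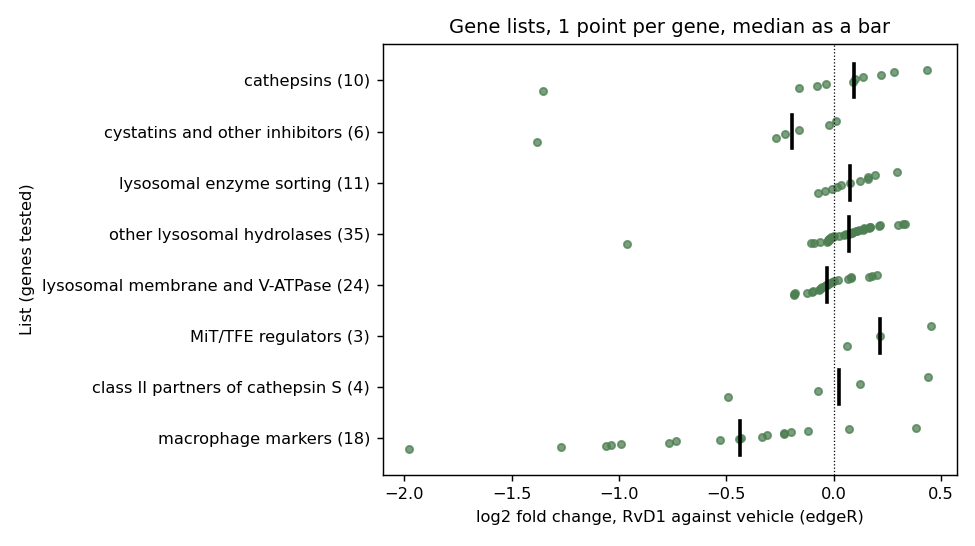
Log2 fold change (RvD1 against vehicle, edgeR, horizontal axis) of every tested gene in each list (vertical axis, number of genes tested in parentheses), with the median of each list as a black bar. The median is -0.44 for the macrophage markers and lies between -0.19 and 0.21 for the other lists plotted, and no gene was called.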

How the data were processed

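RNA-Seq of MuSCs was analyzed in 6 libraries, 3 per group, each from a different mouse. The authors mapped the single-end reads with STAR 2.5.0a (mm10) and estimated gene levels with RSEM. The annotation release is not given in the sources used here. The deposited expected counts are RSEM estimates not scaled for depth, and the deposited TPM values correct, in the authors' RSEM run, for transcript length and depth. FPKM values were not used. SMART-Seq v4 libraries do not mark strand, and reads carried no molecular identifiers. RNA input and integrity are stated differently in the labels and in the study's methods.

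In the tables, 1 stray header line was removed, and 22860 of the genes had 0 counts in every library. A floor of 3 counts equals 0.107 to 0.186 CPM. Expected counts were rounded and tested with edgeR 4.0.16 (R 4.3.3), TMM normalization, filterByExpr by group, the quasi-likelihood test and Benjamini-Hochberg adjustment over all genes tested, at a threshold of 0.05. Standard errors were the fold change divided by the root of the F statistic. Log2 CPM used a prior count of 2. Alternatives were DESeq2 1.42.0, limma 3.58.1 with voom, with and without 1 surrogate variable from sva 3.50.0 (the study's procedure), limma on log2(TPM + 1) and log2(TPM + 0.1), RLE size factors, robust estimation, no filter beyond 1 count in any library, a replicate block and each library left out. The test was tested on simulated data.

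Members and gene lists were chosen with earlier results of these data known. Named genes were all members, the 5 genes most like Ctss and Ctsl, the first 5 macrophage markers and, in each lysosomal list, the genes with the highest mean TPM and the largest rise and fall. Further cathepsins, Cd74 and the macrophage markers with an unadjusted p under the threshold were named after their values were seen.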

Additional observations from a re-analysis of the deposited data

How the results depend on the processing

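The count of 0 genes called over all genes tested was also 0 with DESeq2, limma-voom with or without the surrogate variable, RLE size factors, robust estimation and the replicate block. Without the filter on low counts edgeR called 12, 5 higher and 7 lower with RvD1, none in the lysosomal lists. With 1 library left out the count ranged from 0 to 1, the single call appearing without RvD1 replicate 3. At an unadjusted p under 0.05, edgeR passed 503 genes, DESeq2 474, limma-voom 506 and limma-voom with the surrogate variable removed 2973 of 26518.

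The log2 fold change of Ctss was below 0 under 15 of 15 alternatives, from -1.50 to -1.03. Of 135 alternatives for the other 9 genes, 121 kept the sign, and 2 moved the value by at least 1 SD of the replicates, both for Ctsz on a TPM scale. Leaving out 1 library gave -1.46 to -1.07 for Ctss over the other 9 genes, -0.85 to -0.51 for the log2 summed macrophage markers and -0.75 to -0.52 for Ctss over these markers, a ratio added after seeing the data.

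The replicate block gave -1.32 for Ctss and 896 genes at an unadjusted p under 0.05. Same-numbered libraries had correlations of 0.31, -0.001 and 0.126 of their deviations from the group means, so the numbers were not taken to pair the mice. Within same-numbered libraries the log2 ratio of Ctss to the other 9 genes differed by -0.95, -1.07 and -1.91. Counts of 40 to 159 limit the precision of Ctss.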

Other observations

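Ctsc activates several granule serine proteases by removing their propeptides. After the cathepsins, 10 genes for granule serine proteases of mast cells, neutrophils and cytotoxic lymphocytes were looked up. Whether Ctsc activates each of them, the tryptases included, was not examined. None passed the count filter, and 4 were at 0 in every library. The mast cell genes stood out in a single library, RvD1 replicate 1, which also had the highest Ctsc level. There the tryptase gene Tpsb2 had 6.29 TPM, the chymase gene Cma1 5.22 TPM, Mcpt4 1.63 TPM and the tryptase gene Tpsab1 0.91 TPM. In the other 5 libraries Tpsb2 reached at most 0.07 TPM, Cma1 0.09 TPM and Tpsab1 0.23 TPM, and Mcpt4 was listed at 0. These genes were named after their values were seen, and their part in the Ctsc level was not tested.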
